A study of Canis lupus familiaris with 18 samples.

Results

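Transcript levels of bPAC cells given a high dose of light were compared with those of bPAC cells kept without light, using 3 libraries of each group out of the 18 in the series. The groups were taken from the submitters' source names, 'bPAC - High' and 'bPAC - Control'. The high light group is called illuminated below and the control group dark. Both groups are MDCKI cells carrying bPAC, kept in phenol red-free DMEM with GlutaMAX and 0.5% serum and treated for 2 h, beginning 16 h after plating, so that only the light dose separates them in the labels. Parental MDCKI cells without the cyclase were set beside them, as 2 high light and 3 dark libraries, together with 4 low light libraries of bPAC cells and 3 of parental cells. The labels do not say whether the bPAC line is a clone, which promoter drives the cyclase, or whether the replicates are separate cultures, so p-values reflect how much these libraries varied, and that variation may be technical.

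MDCKI cells are a line of dog kidney epithelium that forms tight, polarised sheets. bPAC is a bacterial adenylyl cyclase whose activity is switched on by blue light, so that light raises cyclic AMP inside the cell without a hormone or a receptor. Cyclic AMP releases the catalytic subunits of protein kinase A, which phosphorylate, among many substrates, transcription factors of the CREB family. In kidney epithelium this pathway is known for carrying the response to vasopressin, with effects on water and ion transport and on the growth of cysts. The files identify genes by Ensembl dog ID and pair none of them with a symbol, and of the 32220 IDs the RefSeq gene table used here held 0. Genes are therefore described by level, by size of change and by behaviour in other groups. The labelled cell type could not be checked against epithelial markers, nor the known targets of the pathway looked up.

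Each library counts reads from near the 3' end of transcripts. The dark libraries held between 2803728 and 4370690 gene reads and the illuminated libraries between 2638511 and 7153601. Levels are given in CPM, a gene's counts relative to the total of its library after TMM scaling, a scaling that lets most genes stay level between libraries. TMM factors lay between 1.05 and 1.08 in the dark and between 0.785 and 0.918 in illuminated cells. Reads that aligned to several places made up 38.5% to 39.9% of all reads in the dark and 41.7% to 44.4% in illuminated cells, and the part of this difference in the results was not tested. In bulk RNA, fewer cells expressing a gene and less RNA per cell cannot be told apart.

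After TMM scaling, the transcripts that changed in illuminated cells did so in a lopsided way. The abundant ones mostly rose, by modest factors, while the scarce ones mostly fell, many of them steeply. Of 8530 genes tested with edgeR's quasi-likelihood test, 2097 (24.6%) passed an adjusted p of 0.05. Of these, 1083 (12.7% of tested genes) were higher and 1014 (11.9%) were lower in illuminated cells. This split depends on the scaling: with library size alone, 447 genes were higher and 1771 lower. A change of at least 2-fold was called upward for 463 genes (5.43%) and downward for 787 (9.23%). The 3 illuminated libraries lay entirely above or entirely below the 3 dark ones for 3705 genes (43.4%), and for 2046 of the 2097 genes called.

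The number called fell to 1098 without bPAC dark replicate 2, to 1385 without bPAC high light replicate 1 and to 937 without bPAC high light replicate 2. In these fits 1095, 1344 and 932 of the 2097 genes were still called. Replicate numbers follow the order of accession and only name the libraries.

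The genes that rose and the genes that fell differed in the size of their changes. The median change was 1.90-fold among the 1083 raised genes (log2 0.93, quartiles 0.73 and 1.22). It was 2.87-fold among the 1014 lowered genes (log2 1.52, quartiles 1.05 and 2.34). Both medians are the same when genes without a read in the lower group, 1 raised and 9 lowered, are put at the bound that 3 reads would give. Among the raised genes, 522 changed by 1.5 to 2-fold and 417 by 2 to 4-fold, with 35 between 4 and 8-fold and 11 at 8-fold or more. Among the lowered genes, 204 changed by 1.5 to 2-fold, 440 by 2 to 4-fold, 209 by 4 to 8-fold and 138 by 8-fold or more. Changes of at least 4-fold thus made up 4.25% of the increases and 34.2% of the decreases.

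Large changes belonged to low levels in both directions. Genes raised by under 1.5-fold had a median dark level of 154 CPM, those raised 2 to 4-fold 18.6 CPM, and those raised at least 4-fold 0.958 CPM. Genes lowered by under 1.5-fold had a median dark level of 121 CPM, those lowered 2 to 4-fold 22.0 CPM, and those lowered at least 8-fold 6.59 CPM. The last group ended at a median of 0.499 CPM in illuminated cells. Scarce genes also need larger changes to pass the test: the median SE of the log2 change was 0.56 for genes under 5 CPM and 0.20 for genes at 500 CPM or more, and the smallest change called was 0.94 and 0.40 on the log2 scale in these classes.

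**Figure D1:**
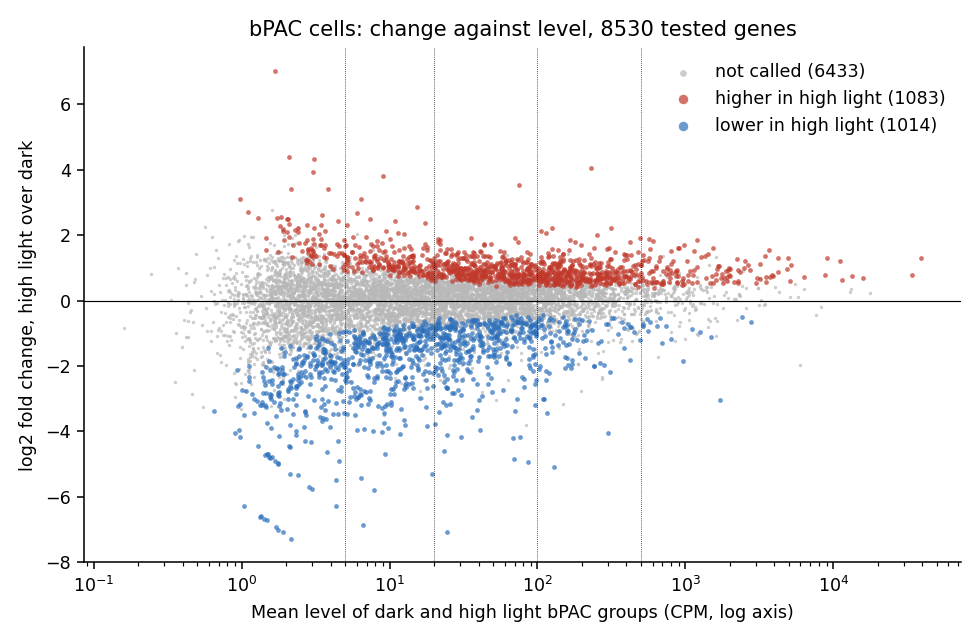
Log2 fold change of illuminated over dark bPAC cells (vertical axis) against the mean of the dark and illuminated group levels in CPM (horizontal log axis) for the 8530 tested genes, with 1083 raised genes in red, 1014 lowered genes in blue, the remaining genes in grey and dotted lines at 5, 20, 100 and 500 CPM. Blue points reach far down at low levels and red points crowd just above 0 at high levels; points in diagonal rows at the lower left are genes with hardly any reads in illuminated cells, whose fitted change depends on edgeR's prior count.

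Direction followed abundance step by step. Genes were placed in 5 classes by the mean of the dark and the illuminated level. Among 2228 genes under 5 CPM, 81 rose and 247 fell. Among 2174 genes of 5 to 20 CPM, 179 rose and 320 fell, and among 2534 genes of 20 to 100 CPM the directions were near balance, at 358 and 337. Above that the balance turned with TMM scaling: 334 rose and 93 fell among 1240 genes of 100 to 500 CPM, and 131 rose and 17 fell among 354 genes at 500 CPM or more. Raised genes were thus 3.64% of the lowest class and 37.0% of the highest. Lowered genes were 11.1% of the lowest class, 14.7% of the next and 4.80% of the highest.

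The medians of all tested genes, called ones included, shifted with level as well. Genes that did not pass the test were not examined alone. The median log2 change of all tested genes was 0.03. It was -0.12 under 5 CPM, -0.03 at 5 to 20 CPM, 0.03 at 20 to 100 CPM, 0.23 at 100 to 500 CPM and 0.36 at 500 CPM or more. In the highest class 74.0% of genes had a change above 0, against 44.6% in the lowest.

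These classes use the libraries that are compared, so a gene that rises tends to move to a higher class. Classing genes by their level in the 3 parental dark libraries, which take no part in the comparison, kept the pattern in a milder form. Of 2176 genes under 5 CPM in parental dark cells 124 rose and 210 fell in illuminated bPAC cells. Of 311 genes at 500 CPM or more 98 rose and 21 fell. The median log2 changes were -0.02 and 0.25 in these classes. At 5 to 20 CPM the median was -0.03, so the medians did not rise from the lowest class to the next.

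**Figure D2:**
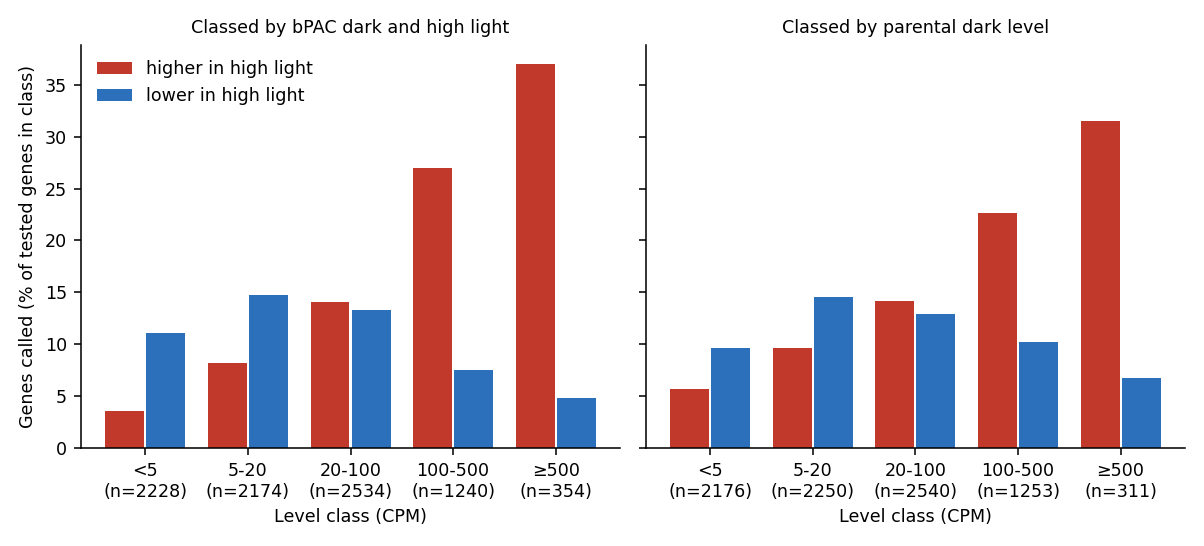
Share of tested genes in each level class (horizontal axis, CPM) that was called higher (red) or lower (blue) in illuminated bPAC cells, with classes set by the bPAC libraries on the left and by the parental dark libraries on the right. Red bars climb from 3.64% to 37.0% on the left and from 5.70% to 31.5% on the right, while blue bars are highest at 5 to 20 CPM in both panels.

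The order of the classes was also examined with no scaling beyond library size. The median log2 change of all genes then moved by -0.32, and raised genes made up 20.2% of the calls in place of 51.6%. The order of the classes held, with raised genes at 8.89% of the genes called under 5 CPM and at 64.9% of those called at 500 CPM or more. The balance at 100 to 500 CPM did not hold: 139 genes were higher and 209 lower (39.9% raised), with a median log2 change of -0.09. Under this scaling raised genes were the majority of calls only at 500 CPM or more. Of the 2097 genes, 1461 were still called under this scaling. Over the main analysis and its 18 alternatives, the share of raised genes among calls went up with every class in each of the 19. All 19 used the classes set by the bPAC libraries that are compared. With classes by parental dark level, in the main fit, this share also went up with every class, from 37.1% to 82.4%.

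The reads themselves, taken as shares of gene reads with no scaling between libraries, moved toward the raised genes. The 1083 raised genes held 32.9%, 29.8% and 31.7% of gene reads in the dark libraries and 46.6%, 51.6% and 44.0% in the illuminated ones. The 1014 lowered genes held 7.92%, 8.84% and 7.82% in the dark libraries and 2.93%, 2.32% and 3.53% in the illuminated ones. These genes were chosen by this contrast, so the values are a description. bPAC high light replicate 2 stood farthest from the dark libraries in both sets and replicate 3 nearest.

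Read shares were also taken over genes chosen without this contrast. The 311 genes at 500 CPM or more in parental dark cells held 54.7%, 55.1% and 55.1% of gene reads in dark bPAC cells and 60.0%, 61.3% and 58.5% in illuminated ones, with no overlap (exact two-sided permutation p = 0.1, the smallest that 3 libraries against 3 can give). The 1253 genes of 100 to 500 CPM lost share, from 27.7 ± 0.312% to 25.7 ± 0.861% (SD, n = 3 each; exact permutation p = 0.1). After TMM scaling, 284 of these 1253 genes were called higher and 128 lower. The 2540 genes of 20 to 100 CPM went from 13.5 ± 0.267% (SD, n = 3) to 11.3 ± 0.465% (SD, n = 3; exact permutation p = 0.1). The 2176 genes under 5 CPM went from 0.718 ± 0.0494% to 0.566 ± 0.0127% (SD, n = 3 each; exact permutation p = 0.1). In parental cells, the 311 genes held 55.7 ± 0.660% in the dark (SD, n = 3) and 54.9 ± 1.42% in high light (SD, n = 2). This difference was smaller than the spread between libraries. The 311 genes were chosen by their level in these parental dark libraries, so the parental values are a description.

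The gain was concentrated and the loss was spread out. Of the 15.9 percentage points of gene reads that the raised genes gained, 20 genes supplied 50% and 264 supplied 90%. The share held by the lowered genes fell by 5.27 points, of which 60 genes accounted for 50% and 424 for 90%. Fewer genes were detected at equal gene reads. After all 6 libraries were thinned to 2638511 gene reads, 11186, 11067 and 11051 genes had a read in the dark libraries. The illuminated ones had 10549, 10305 and 10617, again with no overlap (exact two-sided permutation p = 0.1, the smallest possible). Raised genes took a larger share of reads in illuminated cells, so equal gene reads left fewer for the other genes. The part of this in the lower detection was not tested.

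**Figure D3:**
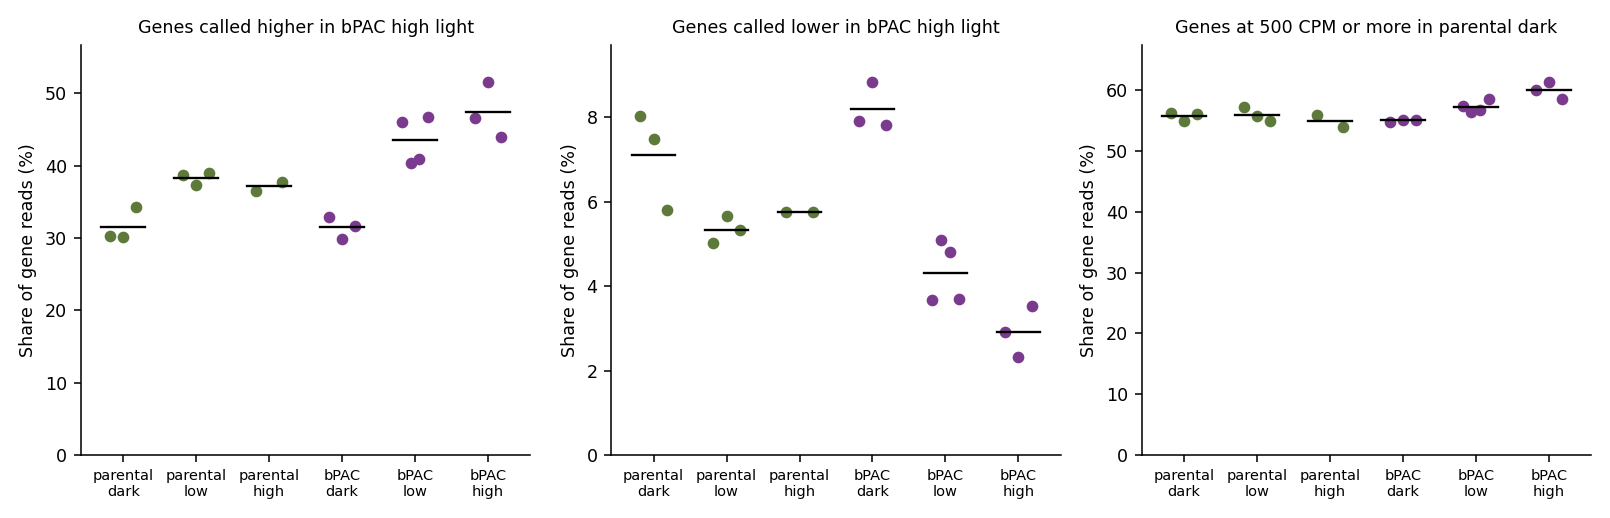
Share of gene reads (vertical axis, %, without scaling between libraries) held by the 1083 genes called higher, the 1014 called lower and the 311 genes at 500 CPM or more in parental dark cells, with 1 point per library, a bar at each group mean, parental cells in green and bPAC cells in purple. The raised genes hold 44.0% to 51.6% in illuminated bPAC cells against 29.8% to 32.9% in dark ones; the first 2 panels show genes chosen by the contrast of bPAC high light with bPAC dark.

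The gene with the largest gain in level was ENSCAFG00000014345. It stood at 24236, 20714 and 22923 CPM in the dark libraries and at 52194, 74317 and 41571 CPM in the illuminated ones. Every illuminated library was above every dark one, and such a lack of overlap was a condition for naming any gene here. This gene went from the second most abundant to the most abundant of the tested genes. It rose 2.48-fold (log2 fold change 1.31, SE 0.24, edgeR adjusted p = 0.000949). From 2.18% to 2.60% of all gene reads in the dark, this transcript came to take 3.81% to 5.83% in illuminated cells. In low light bPAC cells it stood at 47542 ± 5665 CPM (SD, n = 4), between the dark and illuminated means. The low light libraries, from 42054 to 53483 CPM, all lay within the range of the illuminated ones. Parental cells were lower, at 5608 ± 1930 CPM (SD, n = 3) in the dark, and reached 12681 ± 3292 CPM (SD, n = 2) under high light. The parental change was 1.18 on the log2 scale (edgeR adjusted p = 0.0606), and the difference between the lines' changes was 0.13 (interaction, edgeR adjusted p = 0.892).

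The largest loss in level was that of ENSCAFG00000020276, at 4050, 2989 and 2115 CPM in the dark libraries and 369, 375 and 378 CPM in the illuminated ones. The dark libraries were spread almost 2-fold, whereas the illuminated ones were nearly equal and far below them. It fell by 3.03 on the log2 scale (SE 0.45, edgeR adjusted p = 0.000519), an 8.16-fold change, and its rank among tested genes went from 30 to 492. In low light bPAC cells its level was 909 ± 424 CPM (SD, n = 4). Parental cells had no called change, at 3061 ± 1955 CPM (SD, n = 3) in the dark and 5055 ± 1818 CPM (SD, n = 2) under high light, with an edgeR adjusted p of 0.473. The change in bPAC cells was lower than the parental change by a log2 difference of -3.75 (interaction, edgeR adjusted p = 0.0120). That interaction lost its call when the fit left out bPAC high light replicate 1 (adjusted p = 0.0514), bPAC high light replicate 2 (adjusted p = 0.0503) or parental high light replicate 1 (adjusted p = 0.0697).

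Few transcripts were switched on outright. A gene was counted as switched on when the 3 dark libraries together held at most 3 reads and the 3 illuminated libraries together at least 20, with reads in each, and as switched off in the reverse case. The rule was applied to all 32220 gene IDs, whether or not they passed the filter on low counts. It found 17 genes switched on and 67 switched off, although the illuminated libraries held more gene reads in all (14299895 against 10814230). Of the 17 switched on, 5 passed the filter and all 5 were called higher. Of the 67 switched off, 58 passed it and 55 were called lower. Genes of this kind pass the filter through the group where they are present, so these counts lend no support to the calls. The switched-on list depends on depth: with all 6 libraries thinned to equal gene reads 6 genes met the rule, 2 of them among the 17.

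Switched-on genes were scarce even when on. Their mean level in illuminated cells ran from 1.55 to 5.84 CPM with a median of 1.96 CPM, and 2 of the 17 had at least 50 reads. Switched-off genes came from somewhat higher levels, 1.70 to 15.5 CPM in the dark with a median of 2.93 CPM, and 13 of the 67 had at least 50 reads. No read at all was left in illuminated cells for 11 of the 67, and none was seen in the dark for 3 of the 17. With 20 reads as the requirement, no gene of high abundance in either state was among them.

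The most abundant switched-on gene was ENSCAFG00000039271. It had 1, 2 and 0 reads in the dark libraries and 38, 21 and 13 in the illuminated ones, which is 0.213, 0.679 and 0 CPM against 6.21, 5.94 and 5.37 CPM. The illuminated libraries agreed closely once scaled and, as the choice of the gene required, all lay above the dark ones. The ratio of summed reads, relative to TMM-scaled depth, was 22.8, with an exact 95% counting interval from 7.49 to 113. The edgeR adjusted p was 0.00231. The gene was chosen by its reads and its call in these libraries, so these values are a description. In the other 12 libraries, low light bPAC libraries included, it had between 0 and 4 reads. The parental change and the interaction were not called (edgeR adjusted p = 0.927 and 0.323).

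Among the switched-off genes ENSCAFG00000024955 had the highest dark level, with 75, 54 and 46 reads in the dark libraries and 1, 0 and 2 in the illuminated ones. In CPM this was 16.0, 18.3 and 12.1 against 0.163, 0 and 0.827. Every dark library was far above every illuminated one, a separation that the choice of the gene required. The ratio of dark to illuminated reads, relative to TMM-scaled depth, was 61.5, with an exact 95% counting interval from 20.7 to 301 (edgeR adjusted p = 0.00326). These values too are a description, because the gene was chosen by its reads and its call in these libraries. Parental dark libraries were not uniform for this gene, at 9.66, 4.83 and 1.13 CPM, and parental high light libraries stood at 1.01 and 2.56 CPM. Counting intervals cover counting error only.

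**Figure D4:**
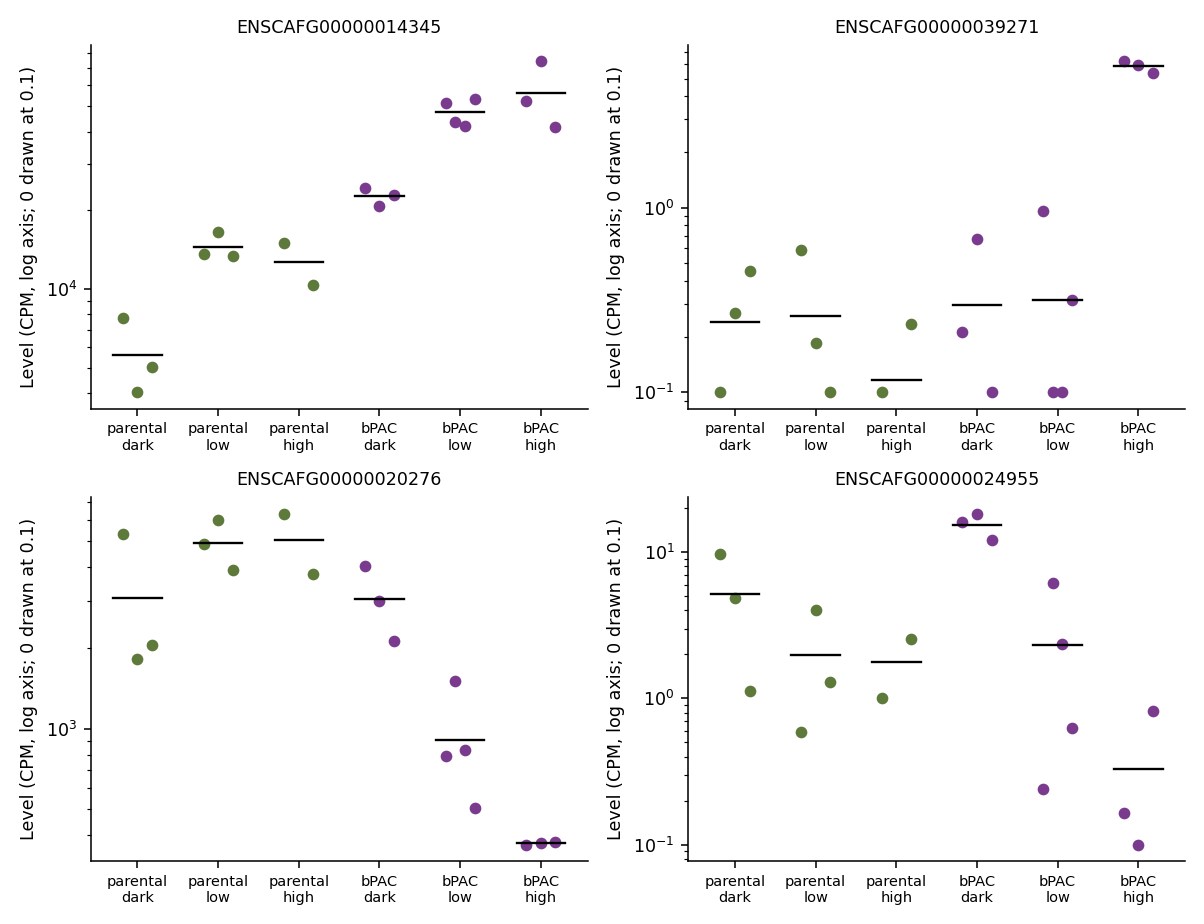
Level of the 4 named genes in each of the 18 libraries (vertical log axis, CPM, with 0 drawn at 0.1), with 1 point per library, a bar at each group mean, parental cells in green and bPAC cells in purple. ENSCAFG00000020276 falls to 369 to 378 CPM in illuminated bPAC cells and not in parental cells; ENSCAFG00000039271, chosen as a switched-on gene, lies at 5.37 to 6.21 CPM in bPAC high light and at 0 to 0.954 CPM in the other libraries.

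The switched sets were then followed in libraries that the rule did not use. Their levels in dark and illuminated bPAC cells restate the rule and are a description. The 17 switched-on genes summed to 2.79 ± 1.18 CPM (SD, n = 3) in dark and 40.3 ± 9.54 CPM (SD, n = 3) in illuminated bPAC cells. In parental cells they summed to 5.76 ± 1.30 CPM (SD, n = 3) in the dark and 6.45 ± 3.39 CPM (SD, n = 2) in high light, a difference within the spread between libraries. None of the 17 reached 20 reads in the 2 parental high light libraries. These held 7993192 gene reads in all, against 14299895 in the illuminated bPAC libraries, so missing 20 reads there does not show absence. In low light bPAC libraries the 17 genes summed to 10.8 to 21.1 CPM. There 4 of the 17 reached 20 reads over 4 libraries with 19273324 gene reads in all.

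The 67 switched-off genes differed among libraries without the cyclase as well. They summed to 244, 304 and 210 CPM in the dark bPAC libraries and to 10.3, 4.53 and 16.5 CPM in the illuminated ones. Low light bPAC libraries held 25.5, 79.2, 55.3 and 22.9 CPM. Parental high light libraries held 44.0 and 68.9 CPM and parental low light libraries 30.3, 48.8 and 50.8 CPM. Parental dark libraries differed widely, at 211, 161 and 48.6 CPM, so that the third of them lay among the illuminated parental libraries. Of the 58 genes tested, 55 had a parental high light change below 0, with a median of -1.50 (-1.45 with 4 genes at 0 reads put at their bound), and 0 were called there or in the interaction. The median was -0.83 without parental dark replicate 1, over the 55 genes that this fit tested. The same transcripts therefore varied among parental dark libraries, which carry no cyclase and received no light, and the part of that variation in the bPAC difference was not tested.

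**Figure D5:**
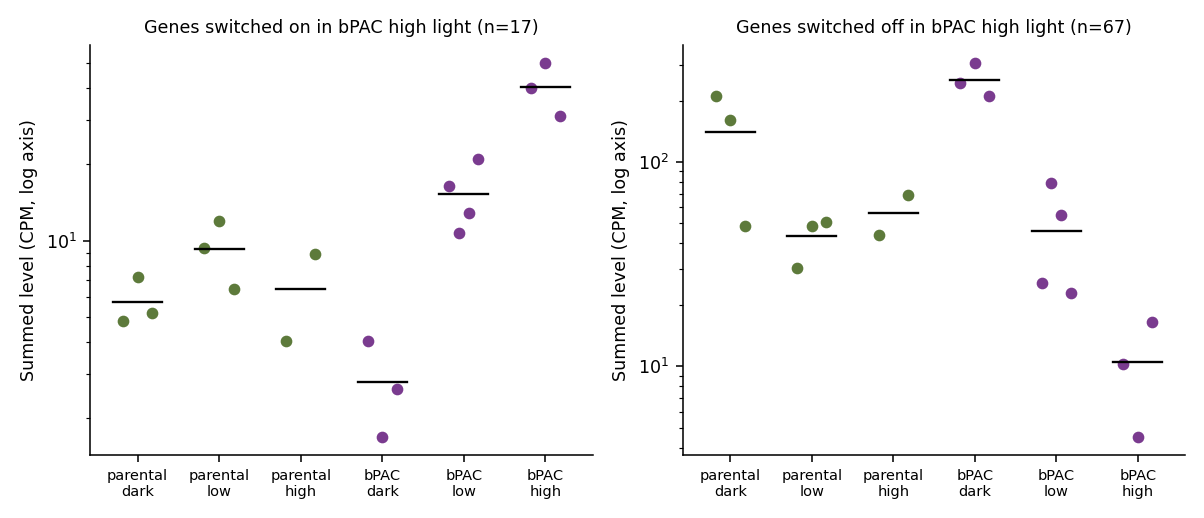
Summed level of the 17 switched-on genes (left) and the 67 switched-off genes (right) in each library (vertical log axis, CPM), with 1 point per library, a bar at each group mean, parental cells in green and bPAC cells in purple. The levels in bPAC dark and bPAC high light follow from how the genes were chosen; among the other groups, switched-off genes differ between parental dark libraries, from 48.6 to 211 CPM.

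The same genes were then followed in parental cells under high and no light, in libraries that the bPAC contrast did not compare. Between parental high light and dark, 15 of 8530 genes (0.176%) passed the threshold, with 1284 at an unadjusted p under 0.05. Over all tested genes the median parental log2 change was -0.02, and 48.5% were above 0. Among the 1083 genes raised in bPAC cells it was 0.39, with 920 (84.9%) above 0 and 11 called higher. Among the 1014 genes lowered in bPAC cells it was -0.51, with 807 (79.6%) below 0 and 1 called lower. Without parental dark replicate 1, a fit that tested 1006 of these lowered genes, their median was -0.33, with 716 below 0. The raised genes held 31.6 ± 2.39% of gene reads in parental dark cells (SD, n = 3) and 37.1 ± 0.919% in parental high light (SD, n = 2), and the lowered genes 7.11 ± 1.16% and 5.76 ± 0.00465%.

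Parental medians were also taken by level class. For the 247 lowered genes under 5 CPM the parental median was -0.98, against -2.44 in bPAC cells, and for the 320 of 5 to 20 CPM it was -0.60 against -1.49. For the 337 lowered genes of 20 to 100 CPM it was -0.29 against -1.16, for the 93 of 100 to 500 CPM -0.38 against -1.06, and for the 17 at 500 CPM or more -0.24 against -0.79. The parental medians of the lowered genes were thus not in the order of the classes, and the share below 0 was highest, at 89.2%, in the class of 100 to 500 CPM. Among raised genes it lay between 0.29 and 0.42 in all 5 classes, while the bPAC median went from 1.71 in the lowest class to 0.83 in the highest. Among the 46 genes raised at least 4-fold the parental median was 0.19, with 28 above 0. Among the 347 genes lowered at least 4-fold it was -1.07, with 317 (91.4%) below 0.

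Tested directly, the responses of the lines differed for 43 genes (0.504% of those tested), with 1185 at an unadjusted p under 0.05. All 43 were among the genes called in bPAC cells, with 9 raised and 34 lowered. The 9 had a median log2 change of 2.06 in bPAC and -0.31 in parental cells. The 34 had a median of -1.78 in bPAC cells and 0.27 in parental cells, and 25 of them were above 0 in parental cells. The 43 genes were chosen by the difference between the lines, so their medians and signs in each line are a description. By level, 2 of the 34 were under 5 CPM, 10 at 5 to 20 CPM, 11 at 20 to 100 CPM, 10 at 100 to 500 CPM and 1 at 500 CPM or more. This count rests on few libraries: it was 84 without parental dark replicate 1 and between 17 and 34 when any other single library of the 4 groups was left out, and DESeq2 called 102. An interaction that misses the threshold does not show that a gene responded alike in both lines.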

How the data were processed

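The authors deposited raw whole-number read counts for 32220 gene IDs, 1 table per library. Each ends in 5 rows for reads not assigned to a gene. Per the labels' protocols, libraries were made with Lexogen's QuantSeq FWD kit, which reads the 3' end, from RNA of the SPLIT kit, so that a count does not scale with transcript length. Per the submitters' processing notes the genome build named is CanFam3.1. The aligner, the counting tool and the annotation were not given in the sources used here. Those 5 rows, between 66.1% and 70.6% of all reads in a table, stayed out of library sizes and tests.

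All 18 libraries entered 1 model of 6 groups in edgeR 4.0.16 (R 4.3.3): filterByExpr with a minimum count of 10 kept 8530 genes, TMM set the scaling, and each contrast used glmQLFit (robust) and glmQLFTest at a Benjamini-Hochberg adjusted p of 0.05 over all tested genes. The 3 contrasts were illuminated against dark in bPAC cells, the same in parental cells, and their difference. An SE is the log2 change divided by the square root of F. Within the 2 groups, no pair of libraries was a duplicate (chi-square per degree of freedom 8.43 to 27.1). The script was tested on simulated counts.

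The rule for named genes asked for called genes without overlap between libraries: per direction, the largest change of mean CPM and the most abundant switched gene. Without symbols, 8 prepared gene lists and the cell type markers were not used. The comparison and its classes were chosen with earlier results of these data known. Alternatives were other scalings, DESeq2 1.42.0, limma-voom (limma 3.58.1), other filters, fewer groups, thinned libraries, leaving out libraries and, added after the data were seen, a surrogate variable (sva 3.50.0), parental leave-outs and classes by parental dark level. No batch or pairing is labelled.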

Additional observations from a re-analysis of the deposited data

Results flagged for a closer look

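The response to high light differed between the lines for 43 genes by a test of the difference itself (edgeR interaction, adjusted p under 0.05). ENSCAFG00000020276 was among them, with a bPAC change below the parental change by a log2 difference of -3.75 (edgeR adjusted p = 0.0120, range 2.51e-27 to 0.0697 over 19 alternatives, of which 3 did not call it). It was lower in 3 of 3 illuminated bPAC libraries than in every dark one, which the rule for named genes required.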

How the results depend on the processing

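The 4 named genes kept their direction and their call in the bPAC comparison under every alternative that tested them, with log2 changes of 0.97 to 1.48, 3.78 to 5.33, -3.35 to -2.72 and -6.90 to -4.56 for ENSCAFG00000014345, ENSCAFG00000039271, ENSCAFG00000020276 and ENSCAFG00000024955. At an adjusted p of 0.01, 902 genes were called, 499 higher and 403 lower, with 305 and 367 of at least 2-fold. With library size alone, 447 were higher and 1771 lower, 166 and 1260 of them by at least 2-fold. With only the 3 bPAC groups in the fit, 674 were higher, 308 of them by at least 2-fold. With 1 surrogate variable, 305 rose and 507 fell by at least 2-fold, and 1386 of the 2097 genes were still called. Leaving out 1 library gave 937 to 2195 genes called, 480 to 1117 higher and 430 to 1078 lower, with 248 to 570 and 364 to 896 of at least 2-fold. The interaction gave 102 genes with library size alone, 102 with DESeq2, 329 without a filter and 17 to 84 on leaving out 1 library; leaving out a parental high light library leaves 1, which is assumed to vary like the other groups. For ENSCAFG00000014345 the interaction, never called, (0.13, and -0.20 to 0.42 on leaving out 1 library) changed sign with library size alone (-0.14), 1 surrogate variable (-0.039) and without bPAC high light replicate 2 (-0.12), parental dark replicate 1 (-0.20) or parental high light replicate 2 (-0.10). Switched genes depend on depth and on the limits. Requiring 0 reads left 3 on and 11 off, requiring 50 reads left 2 and 13, and requiring 10 gave 91 and 185. Thinning gave 6 switched on, 2 of them among the 17, and 84 switched off, 43 of them among the 67. Leaving out 1 library gave 3 to 62 on and 34 to 185 off, since fewer libraries hold fewer reads. The cause of the other shifts was not tested. No paired analysis was possible because the labels give no replicate numbers, and those used here follow the order of accession.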
